A study of Homo sapiens with 4 samples.

Results

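The 10 genes described here encode proteins that carry amino acids, glucose or lactate across the plasma membrane: SLC7A5, SLC3A2, SLC1A5, SLC38A1, SLC38A2, SLC7A1, SLC7A11, SLC2A1, SLC2A3 and SLC16A1. They were chosen by function, but with earlier results of these data known, so they are not a blind choice. Their peaks were taken from the lists by Ensembl gene identifier. IGF2BP2-bound RNA was collected by iRIP-seq, in which protein and RNA are crosslinked with UV light, the protein is pulled down with an antibody (here anti-IGF2BP2) and the attached RNA is sequenced. All libraries came from Jurkat, an established line of human T-cell acute lymphoblastic leukemia grown in RPMI-1640 medium with serum and antibiotics, with no treatment or genetic change named in the labels. The study made 2 IGF2BP2 iRIP libraries (replicate 1 and replicate 2) and 2 input libraries. The peak lists of the iRIP libraries were analysed, and the inputs were not analysed here. Jurkat is a single line, so the results describe this line, and the labels do not say whether the replicates were separate cultures.

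A peak is a stretch of RNA, built of 50 nt bins, where overlapping reads piled up and which the authors' peak caller listed. Its height is given in tags (reads), averaged over the bins where a peak spans several, and is not scaled to sequencing depth, which is unknown. A sense peak lies mainly in the coding sequence (CDS), 5′ UTR, 3′ UTR, a noncoding exon or an intron on the strand of the gene. The lists held 74237 sense peaks in replicate 1 and 77288 in replicate 2, of which the 10 genes held 116 and 129. Listed heights began at 4 tags in replicate 1 and at 5 in replicate 2. Without an RNA level for each gene, strong IGF2BP2 binding and abundant RNA cannot be told apart in these values.

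IGF2BP2 is a cytoplasmic RNA-binding protein known as a reader of N6-methyladenosine (m6A), a methyl mark on mRNA, and it can stabilise the mRNAs it binds. Dividing T cells and T-cell leukemias depend on imported nutrients. SLC7A5 (LAT1) pairs with the heavy chain SLC3A2 (CD98hc) to bring in leucine and other large neutral amino acids, SLC1A5 (ASCT2), SLC38A1 and SLC38A2 carry glutamine and other small neutral amino acids, SLC7A1 carries arginine, and SLC7A11 pairs with SLC3A2 to exchange cystine for glutamate. SLC2A1 (GLUT1) and SLC2A3 (GLUT3) carry glucose, and SLC16A1 (MCT1) carries lactate and pyruvate.

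Of all member peaks, the sequence of a single one could be read whole, because it falls inside a RefSeq promoter window. It is shown as an example of a listed transporter peak. This peak of SLC1A5 lies at chr19:46787350-46787450 (GRCh38.p14) on the minus strand, with a fraction of 0.51 of its length in the CDS and 0.49 in an intron, and stood at 8.5 tags in replicate 2 with no overlapping peak in replicate 1. In the sequence below, written 5′ to 3′ on the gene strand, capitals mark GGA, the start of the GGAC letters in which m6A often lies.
SLC1A5 peak: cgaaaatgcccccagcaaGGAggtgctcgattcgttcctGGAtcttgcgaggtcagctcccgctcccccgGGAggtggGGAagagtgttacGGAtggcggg
The 101 bases held GGA at 5 places and GGAC at 0. Of 35116 RefSeq windows cut to the same place and length, 83.7% held GGA, 30.9% held GGAC, and 9.54% held GGA at least as often. Each of these pieces was promoter DNA with the listed transcription start of its window 57 nt downstream. They are not bound RNAs or other peaks, so they give no background for binding. Only the gene strand was searched, and the match of letters is a description of the sequence.

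Nearly all of the transporter RNAs were found in both pull-downs. In each list 9 of the 10 genes had a sense peak, and the same 9 genes had one in both. Over all 20428 identifiers with a sense peak in either list, 59.5% had one in both, and 41.6% of the 20037 protein-coding genes listed by RefSeq had a named sense peak in both. An overlapping pair of peaks, sharing more than an end coordinate on the same strand, was found in 8 of the 10 genes against 16.4% of identifiers. SLC7A5, SLC3A2, SLC1A5 and SLC7A1 (4 genes) reached 10 tags or more in each replicate, against 3.96% of identifiers. The exception was SLC2A3, a glucose transporter of high affinity, which had no sense peak in either list. It shares much of its sequence with SLC2A14, and since uniquely mapped reads alone were kept, both genes are uncertain here. The comparisons with identifiers were not matched for number of peaks and not limited to coding genes. Every identifier had a sense peak in at least one list, while the 10 transporters were counted with SLC2A3. The median over identifiers was 2 sense peaks in each list, and a gene with more peaks is likelier to hold an overlapping or a high one.

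The genes differed widely in the number of peaks. SLC7A5 carried the most, with 34 sense peaks in replicate 1 and 40 in replicate 2 (37 ± 4.24, SD, n = 2). SLC7A1 followed with 21 and 31 (26 ± 7.07, SD, n = 2), and SLC1A5 with 16 in each. These were the leading genes in both replicates, and their ranges did not overlap with each other. SLC3A2 had 13 and 11 peaks, and SLC38A1 had 8 and 15, so that this pair did not separate beyond the spread of the replicates. SLC16A1 had 7 and 6, SLC2A1 7 and 5, SLC38A2 6 and 2, and SLC7A11 4 and 3. Among these low genes, the ranges of each neighbouring pair overlapped.

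SLC7A5 also stood high among all genes of the lists. By number of sense peaks, 159 identifiers had more in replicate 1 and 153 in replicate 2, and by highest peak 19 and 162 stood above it. Per length of gene, the order changed. SLC1A5 carried 11.7 peaks per 10 kb of gene in each replicate, and SLC7A5 carried 8.61 and 10.1. SLC7A1, a longer gene, carried 2.43 and 3.59 per 10 kb, and SLC38A1 carried 0.930 and 1.74. The lowest density among genes with a peak was that of SLC7A11, at 0.511 and 0.383.

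**Figure D1:**
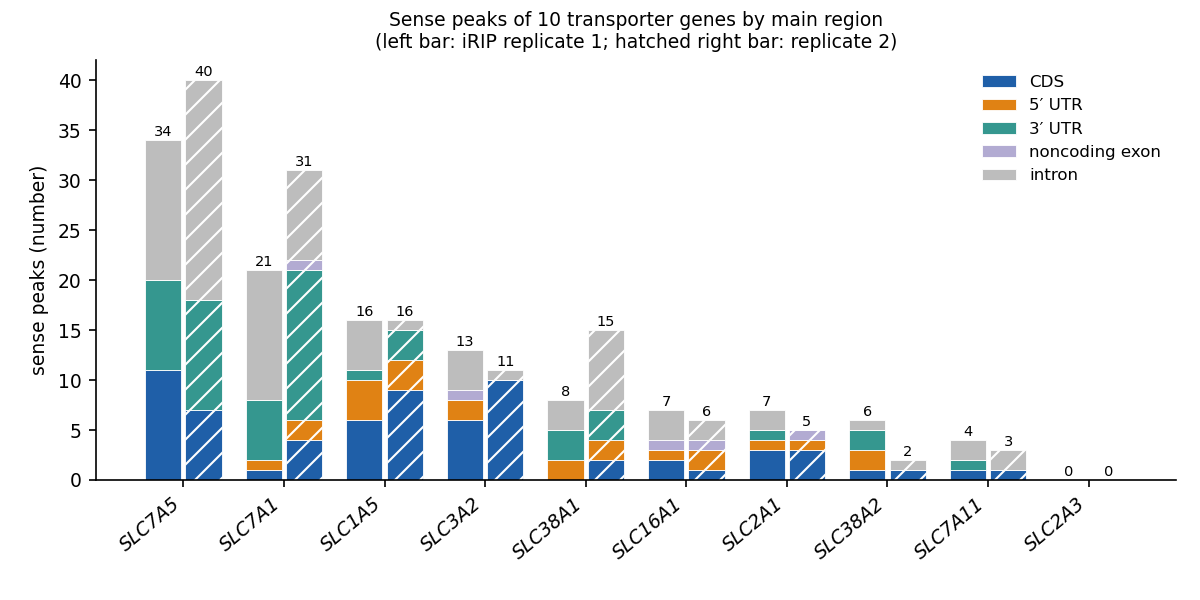
Number of sense peaks of each of the 10 genes (vertical axis) in iRIP replicate 1 (left bar) and replicate 2 (hatched right bar), stacked by the main region of the peak. SLC7A5 has 34 and 40 peaks, SLC2A3 has 0 in both, and green 3′ UTR segments are large in SLC7A5 and SLC7A1.

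SLC7A5 held the highest peaks that both replicates shared. The SLC7A5 gene (ENSG00000103257) spans chr16:87830023-87869507 on the minus strand. Its highest pair lay at chr16:87838700-87838750 in replicate 1, where the peak stood at 35 tags, and at chr16:87838700-87838850 in replicate 2, where it stood at 23 tags. Both were mainly in CDS. The second pair, at chr16:87837800-87837950 in both lists, stood at 16 and 24.7 tags with a fraction of 0.65 of its length in CDS. These were the only pairs of any of the 10 genes with at least 10 tags in both replicates. A further CDS pair, at chr16:87836550-87836650 in both lists, stood at 9.5 and 16 tags.

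SLC7A5 had further high signal at its beginning. A peak at chr16:87868850-87868900 stood at 9 tags in replicate 1, and its partner at chr16:87868850-87868950 stood at 27.5 tags in replicate 2, the highest SLC7A5 peak of that replicate. Both spanned a boundary of CDS and intron, 607 and 557 nt from the 5′ end of the gene. In all, SLC7A5 had 16 overlapping pairs, formed by 16 peaks of replicate 1 and 14 of replicate 2. Of these pairs, 6 lay in the 3′ UTR. Height did not always recur: a peak of 21 tags, almost wholly intronic, at chr16:87841000-87841050 in replicate 1 had no partner in replicate 2.

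SLC3A2 (ENSG00000168003, chr11:62856109-62888860, plus strand) had 6 overlapping pairs, all of them within 7810 nt of the 3′ end of the gene. The pair with the highest lower value lay at chr11:62885450-62885500 in both lists, with a fraction of 0.72 of its length in CDS, and stood at 8 tags in replicate 1 and 12 in replicate 2. A neighbouring pair at chr11:62885150-62885200 spanned an exon edge, with a fraction of 0.48 of its length in CDS, and stood at 6 and 22 tags. The heights of SLC3A2 were lower in replicate 1 in every pair. Of its peaks, 6 of 13 in replicate 1 and 10 of 11 in replicate 2 lay mainly in CDS, and none lay mainly in the 3′ UTR.

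The glutamine carriers differed among themselves. SLC1A5 (ENSG00000105281, chr19:46774883-46788594, minus strand) had 8 overlapping pairs spread from the 5′ UTR to the 3′ UTR. Its best pair, mainly in CDS, stood at 9 tags at chr19:46784500-46784550 in replicate 1 and at 8.33 tags at chr19:46784500-46784650 in replicate 2. A 5′ UTR pair at chr19:46787950-46788000 stood at 7 and 12 tags. The highest SLC1A5 peaks were also in the 5′ UTR and met only at their end coordinates, which was not counted as overlap: 10 tags at chr19:46788200-46788350 and at chr19:46788400-46788500 in replicate 1, and 14 tags at chr19:46788350-46788400 in replicate 2. The peak of replicate 2 filled the gap between the peaks of replicate 1.

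SLC38A1 (ENSG00000111371, chr12:46183063-46269043, minus strand) had 2 overlapping pairs. The higher, in the 5′ UTR at chr12:46268550-46268600, stood at 5 tags in replicate 1 and 8 in replicate 2. The other, in the 3′ UTR, stood at 4 and 7 tags. SLC38A2 (ENSG00000134294, chr12:46358188-46372773, minus strand), which is induced when amino acids run short, had 1 pair, a CDS peak at chr12:46370800-46370850 of 5 and 6 tags. Its highest peak stood at 20 tags in the 5′ UTR at chr12:46372500-46372550 in replicate 1 and had no partner in replicate 2, where the gene reached 6 tags. No other of the 10 genes differed as much between replicates in its highest peak.

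SLC7A1 (ENSG00000139514, chr13:29509414-29595688, minus strand), the arginine carrier, had 5 overlapping pairs, 4 of them in the 3′ UTR. The pair with the highest lower value stood at 8 tags at chr13:29514350-29514400 in replicate 1 and at 7.14 tags at chr13:29514100-29514450 in replicate 2. The remaining pair lay in the 5′ UTR, where replicate 1 had 5 tags at chr13:29595400-29595500 and replicate 2 had 21 tags at chr13:29595400-29595450. A peak of 20 tags at chr13:29524100-29524150, across an exon edge, appeared in replicate 2 only. SLC7A11 (ENSG00000151012, chr4:138164097-138242349, minus strand), the cystine carrier, had 4 and 3 peaks of at most 6 and 7 tags, and no peak of one replicate overlapped a peak of the other.

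**Figure D2:**
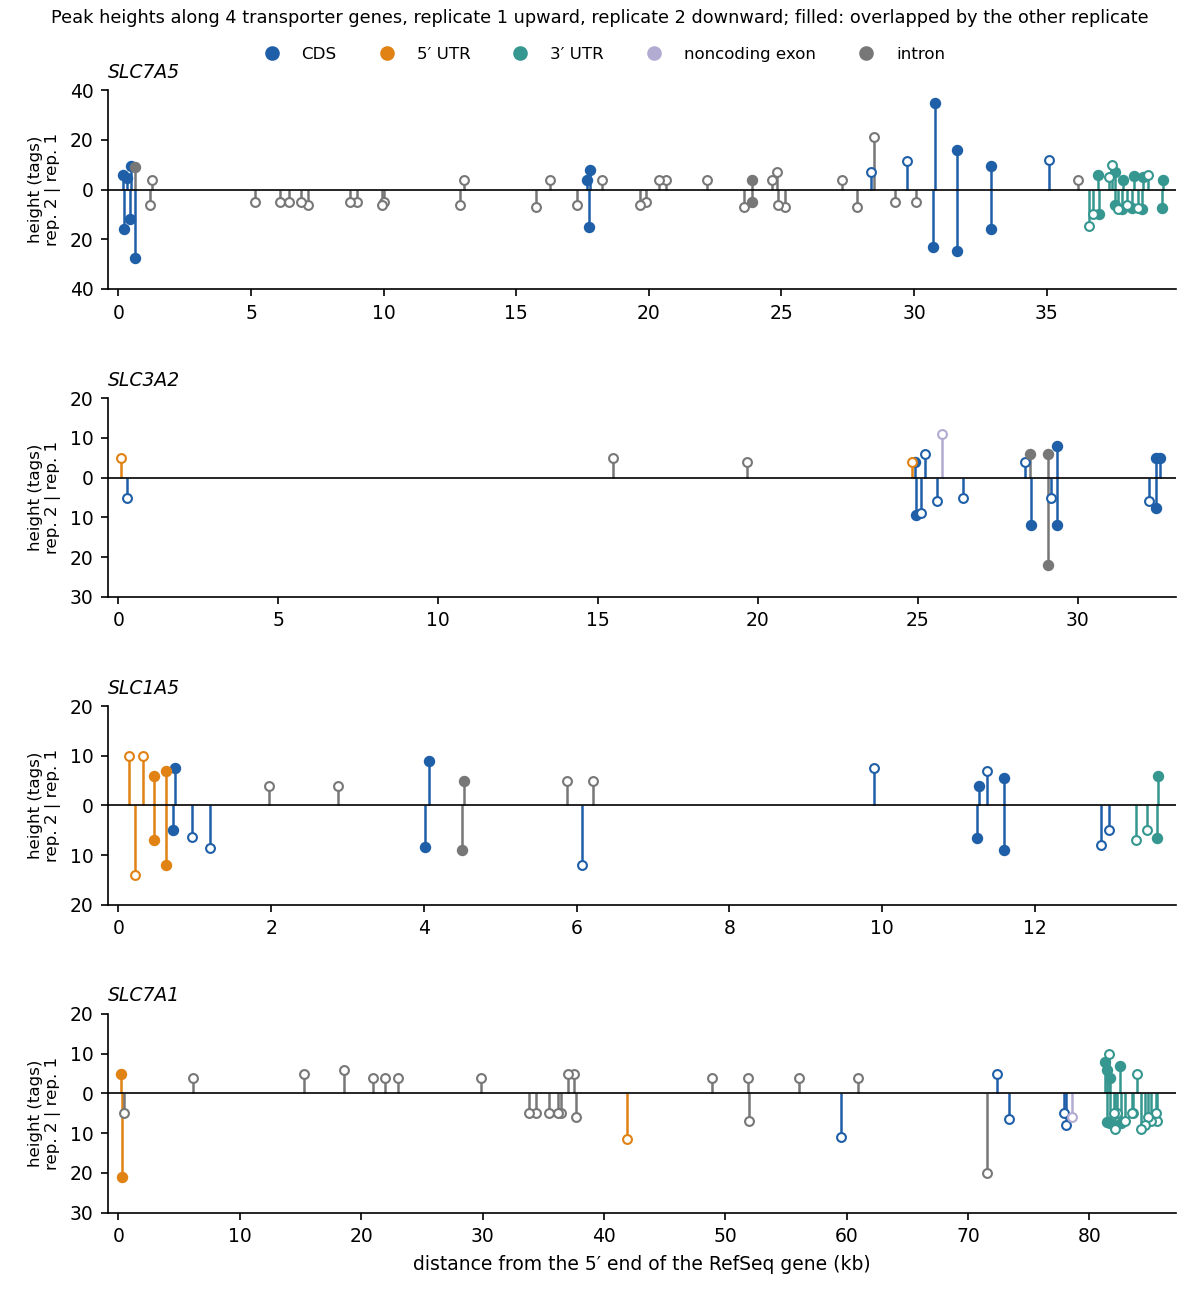
Height of each sense peak in tags (vertical axis, replicate 1 upward, replicate 2 downward) against distance in kb from the 5′ end of the RefSeq gene for SLC7A5, SLC3A2, SLC1A5 and SLC7A1, coloured by main region. Filled points have an overlapping partner in the other list: they crowd at the 3′ UTR and the coding exons of SLC7A5 and at the 3′ UTR of SLC7A1, while the open grey intron points between them rarely have a partner.

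Between replicates, the carriers of glucose and lactate shared few peaks, none of which reached 10 tags. SLC2A1 (ENSG00000117394, chr1:42925353-42958868, minus strand) had 2 overlapping pairs. The higher, mainly in the 5′ UTR, stood at 5.33 tags at chr1:42958600-42958750 in replicate 1 and at 9.5 tags at chr1:42958600-42958700 in replicate 2. The other, at chr1:42930600-42930650, stood at 5 tags in both. The highest SLC2A1 peak, of 10 tags at chr1:42931000-42931050 in replicate 2, lay mainly in a noncoding exon and had no partner. SLC16A1 (ENSG00000155380, chr1:112911847-112956196, minus strand) had 1 pair, in the 5′ UTR at chr1:112956000-112956050, of 4 and 6 tags. SLC2A3 (ENSG00000059804, chr12:7919230-7936187, minus strand) had only an antisense peak of 4 tags, in replicate 1. A missing peak does not show that an RNA was absent or unbound. By the paper's methods, peaks that overlapped an input peak were removed, and whether the deposited lists come after that step was not checked.

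Over all 10 genes the replicates formed 41 overlapping pairs, and 13 of these had the same coordinates in both lists. A peak that overlapped several peaks of the other list entered several pairs. The pairs thus held 41 peaks of replicate 1 and 37 of replicate 2. Over the pairs the median height was 5.5 tags (replicate 1) against 8 tags (replicate 2). Replicate 2 was higher in 35 pairs, replicate 1 in 5, and 1 pair was equal. The share higher in replicate 2, 85.4%, can be set beside 77.8% of the 12466 pairs over all sense peaks. The lists set part of this: they began at 4 tags in replicate 1 and at 5 in replicate 2. A pair whose replicate 1 peak stood at 4 tags was thus higher in replicate 2 by construction. Of the members' peaks in replicate 1, 35.3% (41 of 116, 95% Wilson interval 27.2 to 44.4%) were overlapped in replicate 2, against 16.6% of other sense peaks. In replicate 2 the share was 28.7% (37 of 129, 21.6 to 37.0%) against 15.8%. The intervals cover counting error only: PCR copies of a read are not separate molecules, and peaks of a gene share an RNA.

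Most transporter peaks were low, as in the lists as a whole. The median height of their sense peaks was 5 tags in replicate 1 (4 to 35) and 6 tags in replicate 2 (5 to 27.5), and 43.1% and 34.9% stood at the lowest height listed, against 66.8% and 54.4% of all sense peaks. At least 10 tags were reached by 11 peaks (9.48%) in replicate 1 and 22 (17.1%) in replicate 2, against 2.73% and 8.75% of all sense peaks, and SLC7A5 held 6 and 10 of them. In replicate 1, recurrence of the high peaks rose with a looser overlap rule but stayed below that of other genes. Of the 11 in replicate 1, 2 were overlapped by a replicate 2 peak of any height (18.2%, 95% Wilson interval 5.14 to 47.7%), both in SLC7A5, while 73.8% of the other genes' peaks of that height were. With peaks that touch at an end coordinate counted too, the share rose to 5 of 11 (45.5%, 21.3 to 72.0%), by both 10-tag peaks of SLC1A5 and 1 of SLC7A1, against 76.1%. In replicate 2, 13 of 22 were overlapped (59.1%, 38.7 to 76.7%) against 62.4% for other genes, and 14 (63.6%) against 65.8% with touching peaks.

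The overlap also differed by the region in which a peak lay. In replicate 1, CDS peaks of the transporters were overlapped in 18 of 31 cases (58.1%, 40.8 to 73.6%). Those of the 3′ UTR were overlapped in 12 of 23 (52.2%, 33.0 to 70.8%). Intron peaks were overlapped in 5 of 47 (10.6%, 4.63 to 22.6%). For other genes the corresponding shares were 45.8%, 15.4% and 7.11%. In replicate 2 the transporters' shares were 44.7% in CDS (30.1 to 60.3%), 34.4% in the 3′ UTR (20.4 to 51.7%) and 6.52% in introns (2.24 to 17.5%). Other genes had 35.0%, 13.4% and 7.12%. In both replicates the CDS and intron intervals of the transporters hold the shares of other genes. Without SLC7A5, the 3′ UTR shares were 42.9% (21.4 to 67.4%) and 23.8% (10.6 to 45.1%). Without SLC7A5 and SLC7A1 they were 2 of 8 (25%, 7.15 to 59.1%) and 2 of 6 (33.3%, 9.68 to 70.0%), intervals that hold the shares of other genes.

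By region, the transporters' peaks lay more in both UTRs and less in introns than those of other genes. The other genes were all other identifiers of the lists, coding or not, while the 10 transporter genes all code for proteins. Of the 20428 identifiers, 11774 were named as protein-coding genes, and the comparison was not limited to these. Peaks mainly in the 3′ UTR made up 19.8% of their sense peaks in replicate 1 (13.6 to 28.0%) and 24.8% in replicate 2 (18.2 to 32.9%), against 3.62% and 3.96% of other sense peaks. The 5′ UTR held 11.2% (6.67 to 18.2%) and 7.75% (4.26 to 13.7%), against 2.77% and 3.33%. Introns held 40.5% and 35.7%, against 69.3% and 62.4% elsewhere. The CDS held 26.7% (19.5 to 35.4%) and 29.5% (22.3 to 37.8%), and the values of other genes, 19.9% and 25.5%, lay inside those intervals. Between replicates the CDS share differed by 2.73 percentage points, which a two-sided Fisher's exact test on the peak counts of the libraries did not separate (p = 0.671). The test treats peaks as independent, though peaks of a gene share an RNA, so it covers counting error only.

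**Figure D3:**
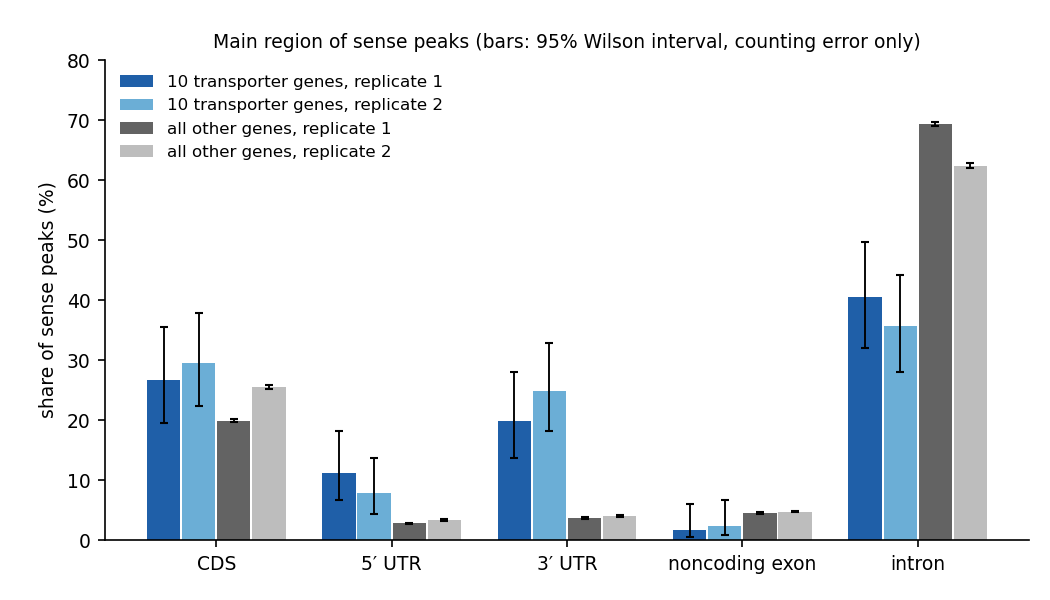
Share of sense peaks by main region (vertical axis, %) for the 10 transporter genes (blue) and all other genes, coding or not (grey), in each replicate, with 95% Wilson intervals for counting error. In both replicates the transporters' bars are above those of other genes in both UTRs and below them in introns.

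The 3′ UTR peaks came mostly from 2 genes. SLC7A5 had 9 in replicate 1 and 11 in replicate 2, and SLC7A1 had 6 and 15. Among identifiers with a 3′ UTR peak the median was 1. Only 4 of 1915 such identifiers had more than SLC7A5 in replicate 1 and 3 of 1951 in replicate 2, and no identifier had more than SLC7A1 in replicate 2, while 12 did in replicate 1. Without these genes the 3′ UTR share of the others was 13.1% (6.80 to 23.8%) and 10.3% (4.83 to 20.8%). SLC38A1 contributed 3 peaks in each replicate, and SLC3A2 and SLC16A1 contributed none.

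Peaks near the beginning of the gene were common to most transporters. Within 1 kb of the 5′ end of the RefSeq gene, 8 of the 9 genes with peaks had a sense peak in both replicates, against 20.2% of 8344 named protein-coding genes with a sense peak in both lists. An overlapping pair lay there in 6 genes, SLC7A5, SLC1A5, SLC7A1, SLC38A1, SLC2A1 and SLC16A1, against 13.8%. The highest peak of the gene lay there in 4 transporters in replicate 1 and 6 in replicate 2, against 14.7% and 16.2% of the 8344 genes. The transporter counts include ties. SLC38A1 in replicate 1 stood at 5 tags in its 3′ UTR as well as within 1 kb. SLC38A2 in replicate 2 stood at 6 tags in its CDS as well as within 1 kb. The heights went apart between replicates at some genes: SLC7A5 reached 9.5 and 27.5 tags there, SLC7A1 5 and 21, and SLC38A2 20 and 6. SLC7A11 had a peak there in replicate 2 only, of 7 tags. For SLC3A2 the peaks within 1 kb were low, at 5 tags in each replicate and not overlapping, but a pair of 4 and 9.5 tags lay 104 nt downstream of an internal start listed by RefSeq. The comparisons with the 8344 genes were not matched for number of peaks. A gene with more peaks is likelier to have one near its 5′ end, and the median over all identifiers was 2 sense peaks in each list.

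**Figure D4:**
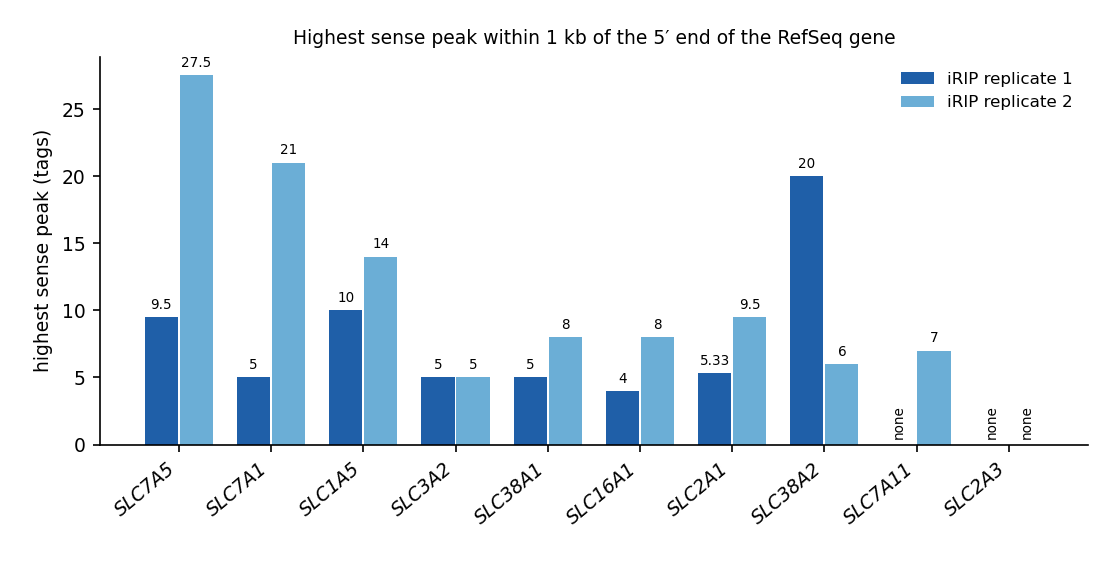
Highest sense peak in tags (vertical axis, from 0) within 1 kb of the 5′ end of each gene in replicate 1 (dark) and replicate 2 (light), with values above the bars. SLC38A2 is high in replicate 1 only, SLC7A5 and SLC7A1 are highest in replicate 2, and SLC2A3 has none.

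Related carriers were compared next. Of the 52 other genes of the SLC1, SLC2, SLC3, SLC7, SLC16 and SLC38 families in the RefSeq table, 27 had a named sense peak in replicate 1, 25 in replicate 2 and 20 (38.5%) in both, close to the 41.6% of all protein-coding genes. Among the genes with a named peak, only SLC38A10 had an overlapping pair, and it was also the only one with at least 10 tags in both, its highest peaks standing at 11 and 20 tags and its sense peaks numbering 16 and 27. The next in height were SLC1A4, a neutral amino acid carrier related to SLC1A5 (7 and 7 tags), SLC16A10, a carrier of aromatic amino acids (7 and 7 tags), SLC7A6, which also pairs with SLC3A2 (6 and 7 tags), and SLC16A7, a monocarboxylate carrier (6 and 6 tags). SLC2A14, the close relative of SLC2A3, had no named peak. In 8 genes without a named peak, SLC2A14 among them, the gene interval held sense peaks of some identifier, of at most 5 tags in replicate 1 and 6 in replicate 2, and none was overlapped.

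Partners and regulators of the transporters were uneven. BSG, the chaperone that brings SLC16A1 to the membrane, had 8 and 11 sense peaks with highest values of 12 and 16 tags, above those of SLC16A1 itself, and 4 of them overlapped in each replicate. EMB, another chaperone of monocarboxylate carriers, had 4 and 2 peaks of at most 5 and 7 tags. ATF4, the transcription factor that induces amino acid carriers when amino acids are scarce, had 9 and 7 peaks, reached 13 and 15.5 tags, and had 6 and 7 of them overlapped. TXNIP, which draws glucose transporters into the cell, had no peak in either list.

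The genes whose counts of CDS, intron and UTR peaks in both lists were closest to those of SLC7A5 were SEPTIN6 (Euclidean distance of the 8 counts 9.11), CTBP1 (10.1) and ATP2A3 (11.6). All had fewer 3′ UTR peaks than SLC7A5, with 4 and 4, 4 and 6, and 5 and 4.

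The labelled cell type was checked with marker genes. Of 9 T cell markers, 7 had a sense peak in both lists, among them CD3D, CD3E and LCK, against 41.6% of protein-coding genes. An overlapping pair was found in 6 of the 9. CD28 had peaks in replicate 2 only. TRAC was not listed as a protein-coding gene in the RefSeq table, so its lack of a named peak is not informative. Of the B cell, myeloid, epithelial and erythroid markers, 1 of 4, 1 of 4, 1 of 3 and 0 of 2 did, and none of these had an overlapping pair.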

How the data were processed

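The authors sequenced the libraries as read pairs, aligned reads to GRCh38 with TopHat2 (builds and tools per the submitters' processing notes, versions not given in the sources used here), kept uniquely mapped reads and called peaks with ABLIRC in each library on its own. ABLIRC joins reads that overlap by at least 1 bp and, by the methods, keeps a peak whose p-value in a simulation over its gene is below 0.05. By the methods, peaks that overlapped an input peak were then removed. Whether the deposited lists come after this step was not checked. Each deposited list gives a height in tags, an unscaled signal, and a deposited p-value per peak. In each list all single-bin peaks of a strand and height had the same p-value whatever their gene, and the lowest was 2.51e-08, so the deposited p-values do not match a simulation for each gene. They were used only as a filter. In every deposited peak, height times the number of 50 nt bins was a whole number, so that the height signal of a longer peak is a mean over its bins. Removing input peaks, if done in these lists, lowers the number of peaks listed for RNAs that are also found in the input. Keeping uniquely mapped reads does so for genes with near-identical copies. Neither effect was tested. The reads per library are not given in the sources used here.

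From these lists, the main region of a peak was the class with the largest share of its length. Identifiers were named by position in the RefSeq table (GRCh38.p14), which gave 14047 of 20428 a name. Deposited lengths count both end coordinates. For overlap, positions were read as half-open, so peaks on the same strand that meet only at an end coordinate did not overlap. Shares have 95% Wilson intervals. Comparison between libraries used Fisher's exact test on peak counts, and each exact p-value covers counting error only. The scripts ran in Python 3.11.15 (scipy 1.17.1, pandas 2.3.3, numpy 2.4.6, matplotlib 3.10.9) and were tested on simulated data. All 10 genes are named. Of the other genes of their families, the 5 with the highest sense peak by the lower of the replicates were named, with BSG, EMB, TXNIP and ATF4. The 10 genes and all lists were chosen with earlier results of these data known. The single promoter window that holds a whole peak was searched for GGA and GGAC on the gene strand. Alternatives covered minimum height, p-value, region, overlap, weighting and gene assignment.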

Additional observations from a re-analysis of the deposited data

How the results depend on the processing

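Of 57 alternatives of the main results, 33 were counted as leaving the value on the same side and within the spread set for it, and 24 as changing it. For the CDS difference this count did not follow size. Differences of 18.2 points (at least 10 tags) and 10.4 points (without SLC7A5) counted as unchanged, and 2.93 points (weighted by height) as changed. With peaks of at least 5 tags in both lists, replicate 1 kept 65 sense peaks, 47.7% of them overlapped, and the CDS difference (replicate 2 minus replicate 1) turned to -4.39 percentage points (exact p = 0.622). With at least 10 tags, 4 genes had a peak in both replicates and 1 an overlapping pair, the peaks numbered 11 and 22, 18.2% were overlapped, and the CDS shares were 36.4% and 54.5%. With a p-value under 0.001, the corresponding values were 5 genes, 4 genes, 32 and 51 peaks, a CDS share of 40.6% in replicate 1, and a CDS difference of -5.33 points (exact p = 0.648). With exonic peaks only, 69 and 83 peaks remained, 52.2% were overlapped, and 44.9% and 45.8% lay in CDS. Counting any share of the length in CDS gave 37.1% in replicate 1 and a difference of -0.635 points (exact p = 1.0), and weighting by height gave a difference of 2.93 points. The sign of the CDS difference is therefore not settled. Leaving out replicate 1 or replicate 2 gave 9 genes with a peak each time. Counting touching peaks among those of at least 10 tags was an alternative chosen after seeing the data. It raised the overlapped share from 18.2% to 45.5% in replicate 1 and from 59.1% to 63.6% in replicate 2. Both changes were counted as leaving the value the same. Leaving out SLC7A5, an alternative chosen after seeing the data, gave 82 and 89 peaks and a CDS difference of 10.4 points (exact p = 0.181). Why these values moved was not tested, except that a minimum height or p-value by construction leaves fewer peaks. Of 58 alternatives for the number of peaks of single genes 32 kept the value, as did 16 of 18 for the highest exonic peak. No paired analysis was possible because the inputs, which share replicate numbers with the iRIP libraries, were not analysed and the lists hold a single group. With reads per library unknown, the lowest height listed (4 and 5 tags) limits which weak peaks could be seen.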

Other observations

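Antisense peaks, which lie on the strand opposite to the gene, made up a smaller share of peaks at the transporters than over all genes. The lists gave 8 in replicate 1, at 6 of the 10 genes and all of 4 tags, and 10 in replicate 2, at 7 genes and of 5 to 6 tags. None was overlapped in the other replicate. They made up 6.45% and 7.19% of the transporters' peaks, against 28.1% and 23.0% over all genes. This share also falls as the number of sense peaks rises, and antisense peaks per gene were not compared. Whether antisense RNA or imperfect strand marking gave these peaks was not tested.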
